A study of Mus musculus with 5 samples.

Results

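Cd5l and 7 scavenger receptor genes (Cd36, Cd163, Msr1, Marco, Scarb1, Scarb2 and Colec12) were followed in CD11b-positive brain cells of 5 mice with the 5xFAD transgenes. The 8 genes were taken by symbol from a table of 56748 genes, each matched 1 row, and 7 of them passed the filter on low counts. Cd5l is the gene the study expressed from a transgene, and the others are receptors of macrophages and related cells. The libraries came from 3 mice of genotype 5xFAD/Cd5l tg/wt (replicates 1, 2 and 3), called Cd5l-transgenic below, and from 2 mice of genotype 5xFAD (replicates 1 and 3). All mice were 7 months old, all carried 5xFAD, a set of human amyloid precursor protein and presenilin transgenes that causes early amyloid plaques, and in all the cerebellum was removed. In the Cd5l-transgenic mice a further transgene expressed mouse Cd5l from the promoter of human PDGF-B, which is known from other transgenic lines for activity in neurons. The labels used here do not state how the cells were isolated, how many founder lines there were or the sexes, and wild-type mice were not analysed here.

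CD5L, also called apoptosis inhibitor of macrophages, is a secreted protein built of scavenger receptor cysteine-rich (SRCR) domains. Tissue macrophages make it under the control of the liver X receptors, and it circulates bound to IgM. It binds lipids, debris and microbial surfaces, enters cells through CD36 and inhibits fatty acid synthase. Scavenger receptors take up modified lipoproteins, dying cells and protein aggregates. Class A receptors (Msr1, Marco, Colec12) carry a collagen-like stalk, class B receptors (Cd36, Scarb1, Scarb2) span the membrane at both ends, and CD163 is an SRCR receptor for haemoglobin bound to haptoglobin. Several of them bind amyloid-beta, and brain macrophages at the meninges and vessels express Cd163, which microglia largely lack.

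Expression of the Cd5l transgene was driven by the human PDGF-B promoter in place of the Cd5l sequence below. The bases before a transcript start of 3 genes are shown because Cd5l is the transgene and Cd36 and Cd163 varied alike between the mice. The last 2 were thus picked by their values, and a link of these bases to that pattern was not tested. Each is 250 bases long, 5′ to 3′ on the strand of the gene, from RefSeq on GRCm38.p6 (chr3:87357631-87357880 on the + strand, chr5:17835897-17836146 on the - strand and chr6:124304401-124304650 on the + strand), whereas the counts use GRCm39. The table held such a sequence for 5 of the 8 genes. A single window was used for each gene shown, so any other transcript starts of these genes were not searched. Capitals mark GAGGAA or its reverse complement TTCCTC, a core to which the myeloid factor PU.1 binds, searched on both strands.
Cd5l: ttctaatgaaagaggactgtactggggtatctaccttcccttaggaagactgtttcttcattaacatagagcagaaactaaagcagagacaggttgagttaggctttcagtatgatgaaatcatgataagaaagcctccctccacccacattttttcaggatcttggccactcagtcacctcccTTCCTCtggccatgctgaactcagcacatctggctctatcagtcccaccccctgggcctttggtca
Cd36: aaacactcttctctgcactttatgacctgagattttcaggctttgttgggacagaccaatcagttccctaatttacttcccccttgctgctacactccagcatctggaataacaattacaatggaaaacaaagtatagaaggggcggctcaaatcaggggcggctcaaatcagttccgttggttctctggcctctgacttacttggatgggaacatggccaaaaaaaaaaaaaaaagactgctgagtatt
Cd163: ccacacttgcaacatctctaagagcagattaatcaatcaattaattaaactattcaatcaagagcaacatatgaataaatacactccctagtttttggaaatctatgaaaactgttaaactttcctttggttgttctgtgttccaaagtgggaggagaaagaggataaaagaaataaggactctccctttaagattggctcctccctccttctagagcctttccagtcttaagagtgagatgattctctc
The core was found 1 time before Cd5l, starting 66 bases before the transcript, and 0 times in the windows of Cd36 and Cd163. It was found in 23.3% of 32851 windows of the same length, so a match is common.

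Depth was alike, with totals of 30798377 to 32874316 counts in the Cd5l-transgenic libraries and 31007840 and 34794617 counts in the 5xFAD libraries. Levels are CPM, counts scaled to a common library total after TMM scaling, and 1 count was worth 0.0282 to 0.0339 CPM. Itgam, which encodes CD11b, stood at 319.5, 305.5 and 363.4 CPM in Cd5l-transgenic replicates 1, 2 and 3, against 343.9 and 354.7 CPM in 5xFAD replicates 1 and 3. The summed CPM of 12 homeostatic microglia markers, among them P2ry12 and Tmem119, was 28290 to 30490 in Cd5l-transgenic and 28090 and 29580 in 5xFAD libraries. Libraries stood apart by other cell types or states. The sum of 12 plaque-associated microglia markers was 26030 CPM in 5xFAD replicate 1, against 15980 to 17220 CPM in the other 4 libraries. The sum of 10 choroid plexus markers was 4284 CPM in 5xFAD replicate 3 and 429.4 to 1015 CPM elsewhere. The sum of 8 oligodendrocyte markers was 4239 CPM in Cd5l-transgenic replicate 2 and 338.9 to 1077 CPM elsewhere. The 8 monocyte markers, with S100a4 at 0 in all libraries, summed to 502.5 to 749.9 CPM in Cd5l-transgenic and 675.4 and 755 CPM in 5xFAD libraries. Most of that sum was Nr4a1, an immediate early gene that the dissociation-response list also holds. Without it the other 7 markers, mostly Fn1, summed to 170.3 to 294.2 CPM in Cd5l-transgenic and 133 and 137.4 CPM in 5xFAD libraries, without overlap. The endothelial, mural and fibroblast, neuron and erythroid sums did not overlap either, and the sums of the other lists overlapped. Groups did not overlap for 15.9% of all tested genes. The sums of 8 astrocyte markers, 312.2 to 444 CPM in Cd5l-transgenic and 305 and 324.2 CPM in 5xFAD libraries, overlapped. The 9 neutrophil markers summed to 72.68 to 195.5 CPM in Cd5l-transgenic and 57.13 and 75.96 CPM in 5xFAD libraries, and 7 erythroid markers to 7.466 to 21.33 CPM and 2.44 and 1.524 CPM. The 12 dissociation-response markers summed to 10990 to 16900 CPM and 16830 and 16410 CPM. In each of these bulk libraries, fewer cells of a type and less RNA per cell cannot be told apart.

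Cd5l separated the genotypes completely. It had 7230, 10680 and 6438 counts in Cd5l-transgenic replicates 1, 2 and 3, against 45 and 9 counts in 5xFAD replicates 1 and 3. In CPM these were 233.7, 334.9 and 194.8 in Cd5l-transgenic libraries, against 1.525 and 0.254 in 5xFAD libraries. The highest and lowest Cd5l-transgenic libraries differed 1.72-fold, and those of 5xFAD 6-fold, at 45 counts and 9 counts. The gene (ENSMUSG00000015854) lies on chromosome 3 at 87265188 to 87278380 on the + strand (GRCm39), and no other gene of the table overlapped it. Counts do not separate transcripts of the transgene from those of the gene itself.

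The edgeR quasi-likelihood test gave Cd5l a log2 fold change of 8.23 (SE 0.598, 95% interval 6.72 to 9.75), or 105-fold to 861-fold. Its unadjusted p of 2.53e-05 ranked 1 of 17724 tested genes, yet its adjusted p was 0.448. By edgeR, 0 genes passed the adjusted threshold of 0.05 (0%), and 467 had an unadjusted p under 0.05 (2.63%). DESeq2 called 11 of the 14631 genes to which it gave an adjusted p (0.0752%), and Cd5l was among them (log2 fold change 8.19, adjusted p = 5.79e-19). The edgeR log2 fold change was 9.95 when 5xFAD replicate 1, the library with 45 counts, was left out (adjusted p = 0.0525). Leaving out 5xFAD replicate 3 gave 7.38 (adjusted p = 0.311).

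Neuronal RNA was scarce in the same libraries. The 10 neuron markers summed to 8.436, 16.21 and 6.929 CPM in Cd5l-transgenic replicates 1, 2 and 3, against 5.659 and 6.18 CPM in 5xFAD replicates 1 and 3. The level of Cd5l was 27.7, 20.7 and 28.1 times that sum in the Cd5l-transgenic libraries, against 0.269 and 0.0411 times in the 5xFAD libraries. Of the 10 neuron markers, 9 had a higher mean in Cd5l-transgenic libraries. Which cells held the Cd5l RNA was not tested. The library with the most Cd5l, Cd5l-transgenic replicate 2, also had the largest neuron, oligodendrocyte, endothelial, astrocyte, mural and fibroblast, and erythroid sums. The monocyte sum without Nr4a1 was largest there too, but the choroid plexus, neutrophil and border macrophage sums were not. The part of these cells in its Cd5l count was not tested. Pdgfb, the mouse counterpart of the human gene whose promoter drives the transgene, was looked up after its values had been seen. It stood at 209.6, 223.4 and 296 CPM in Cd5l-transgenic libraries and at 282.8 and 239.7 CPM in 5xFAD libraries.

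In each of the 6 receptors that passed the filter, the values of the genotypes overlapped. Of these 6, 0 passed the adjusted threshold by edgeR or DESeq2, and 0 had an unadjusted p under 0.05 by edgeR. Over all tested genes the shares were 0% by edgeR, 0.0752% by DESeq2 and 2.63% with an unadjusted p under 0.05 by edgeR. Groups did not overlap in 15.9% of all tested genes, with 7.2% higher and 8.69% lower in every Cd5l-transgenic library. With shares this low, counts of 0 among 6 genes do not set the receptors apart from other genes. The log2 fold change was above 0 for 3 receptors (Cd36, Cd163 and Scarb2), where 42.7% of all genes lay above 0, and below 0 for 3 (Msr1, Scarb1 and Colec12). Their median was -0.016, against -0.027 over all tested genes.

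**Figure D1:**
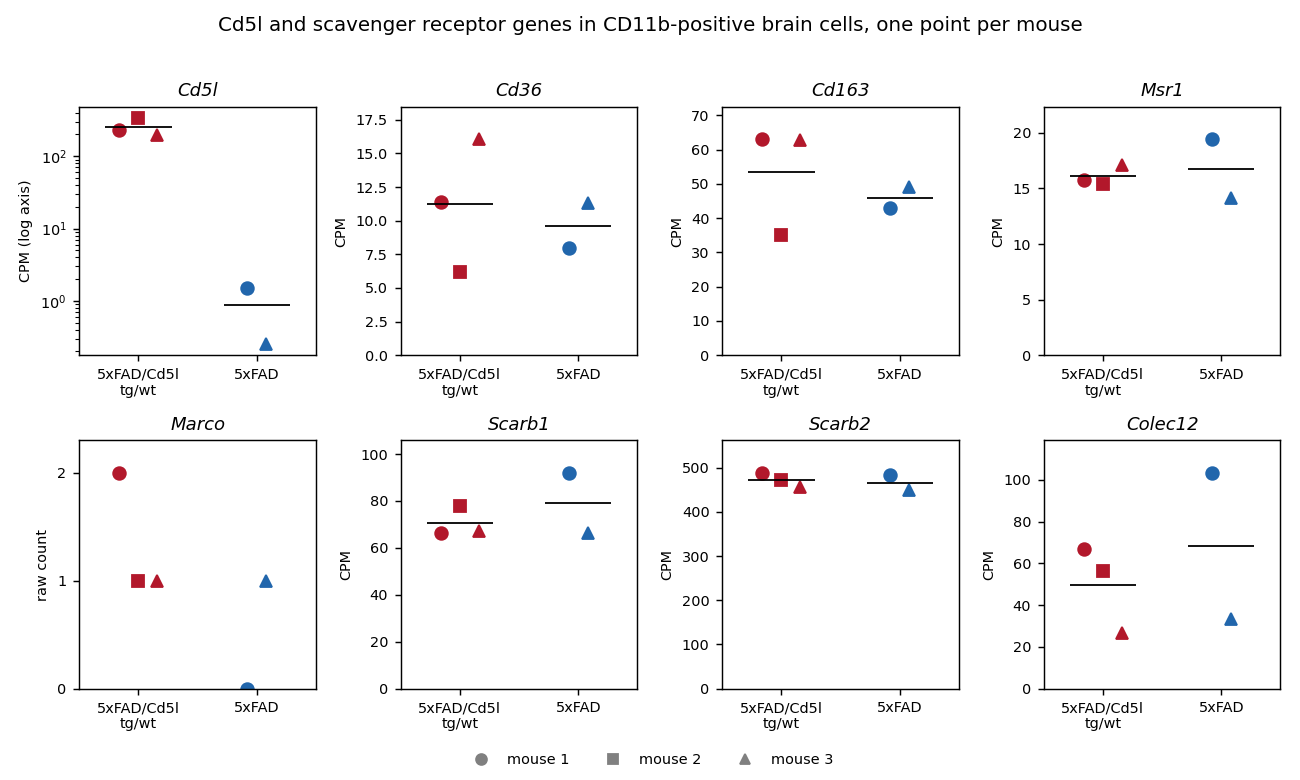
Level of each gene in each library, in CPM (log axis for Cd5l, raw counts for Marco), with Cd5l-transgenic mice in red, 5xFAD mice in blue, a symbol for each mouse number and a line at the group mean. The Cd5l-transgenic mice sit between 194.8 and 334.9 CPM of Cd5l, above 1.525 and 0.254 CPM in 5xFAD, while the groups overlap for the 6 receptors that were tested.

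Levels per length of transcript placed Scarb2 far above the other receptors. In CPM per kilobase of the gene length that the table gives, Scarb2 stood at 72.78 to 77.72 in Cd5l-transgenic libraries and at 71.39 and 76.76 in 5xFAD libraries. Cd163 stood at 6.426 to 11.54 against 7.843 and 8.97, Scarb1 at 7.814 to 9.147 against 7.828 and 10.82, and Colec12 at 3.031 to 7.661 against 3.842 and 11.86 CPM per kilobase, so the ranges of these 3 overlapped and their order is not settled. Cd36, at 1.721 to 4.467 against 2.209 and 3.152, and Msr1, at 2.422 to 2.704 against 2.228 and 3.061, overlapped as well. Cd5l itself was at 95.68 to 164.5 CPM per kilobase in Cd5l-transgenic libraries, above every Scarb2 value, and at 0.1247 and 0.7489 in 5xFAD libraries, below every receptor except Marco. The labels used here do not state the length of the transgene's transcript, so the level per length uses that of the gene.

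Cd36, the fatty acid translocase through which CD5L is taken up, was expressed at a low level that differed more within a genotype than between genotypes. It stood at 11.41, 6.178 and 16.04 CPM in Cd5l-transgenic replicates 1, 2 and 3, against 7.929 and 11.32 CPM in 5xFAD replicates 1 and 3. The highest and the lowest value both came from Cd5l-transgenic mice, and the 5xFAD values lay between them. The means were 11.2 ± 4.93 CPM (SD, n = 3) and 9.62 ± 2.39 CPM (SD, n = 2). The edgeR log2 fold change was 0.22 (SE 0.415, adjusted p = 0.995) with a 95% interval of -0.83 to 1.26, so that changes down to 0.562-fold and up to 2.4-fold lay within it. The value was -0.12 without Cd5l-transgenic replicate 3 and 0.52 without Cd5l-transgenic replicate 2. Cd36 (ENSMUSG00000002944) lies on chromosome 5 at 17986688 to 18093799 on the - strand.

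Scarb1, the receptor for high-density lipoprotein, stood at 66.42, 77.75 and 67.08 CPM in Cd5l-transgenic libraries, against 92 and 66.54 CPM in 5xFAD libraries. Only 5xFAD replicate 1 was above the Cd5l-transgenic range, and 5xFAD replicate 3 lay at its lower end. The log2 fold change was -0.17 (SE 0.155, edgeR adjusted p = 0.995, 95% interval -0.553 to 0.213), and 0.083 without 5xFAD replicate 1. Scarb2, or LIMP-2, a lysosomal membrane protein that sorts cargo to lysosomes, was the steadiest of the 8 genes. It stood at 488.4, 473.1 and 457.4 CPM in Cd5l-transgenic libraries, against 482.5 and 448.7 CPM in 5xFAD libraries, a 1.09-fold range over all 5. Its log2 fold change was 0.02 (SE 0.0836, edgeR adjusted p = 0.999) and the 95% interval, from 0.882-fold to 1.17-fold, was the narrowest of the 6 receptors. Scarb1 (ENSMUSG00000037936) and Scarb2 (ENSMUSG00000029426) lie on chromosome 5 at 125354151 to 125418158 and 92589173 to 92654692, both on the - strand.

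Among class A receptors, Msr1, a receptor of acetylated lipoprotein and of amyloid-beta on microglia, varied little. It stood at 15.77, 15.37 and 17.16 CPM in Cd5l-transgenic libraries, against 19.42 and 14.14 CPM in 5xFAD libraries. The 2 5xFAD mice thus lay on either side of all Cd5l-transgenic mice. The log2 fold change was -0.06 (SE 0.159, edgeR adjusted p = 0.996, 95% interval -0.444 to 0.334), and 0.19 without 5xFAD replicate 1. Msr1 (ENSMUSG00000025044) lies on chromosome 8 at 40034726 to 40095714 on the - strand.

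Marco, a collagen-stalked receptor of bacteria and particles on tissue macrophages, was at the limit of detection. It had 2, 1 and 1 counts in Cd5l-transgenic libraries, against 0 and 1 counts in 5xFAD libraries. All lie at or under 3 counts, the limit that a count of 0 allows, which is 0.0847 to 0.102 CPM and covers counting error only, so a fold change is not given. Marco (ENSMUSG00000026390) lies on chromosome 1 at 120402267 to 120432753 on the - strand.

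Colec12, a scavenger receptor with a C-type lectin domain known from vascular endothelium and perivascular cells, varied most of the 6 tested receptors. It stood at 66.84, 56.26 and 26.45 CPM in Cd5l-transgenic replicates 1, 2 and 3, against 103.4 and 33.52 CPM in 5xFAD replicates 1 and 3. Its range over the 5 libraries was 3.91-fold. Replicate 3 was the lowest and replicate 1 the highest library of each genotype, but the labels give no pairing by number. The means were 49.9 ± 20.9 CPM (SD, n = 3) and 68.5 ± 49.4 CPM (SD, n = 2). The log2 fold change was -0.46 (SE 0.583, edgeR adjusted p = 0.995), and its 95% interval ran from -1.93 to 1.02. It was 0.57 without 5xFAD replicate 1 and -1.06 without 5xFAD replicate 3, so its sign rested on 1 mouse. Colec12 (ENSMUSG00000036103) lies on chromosome 18 at 9707595 to 9882644 on the + strand, where 7 small genes of the table overlap it with at most 6 counts each.

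Cd163, the haemoglobin-haptoglobin receptor, stood at 63, 35.09 and 62.75 CPM in Cd5l-transgenic replicates 1, 2 and 3, against 42.83 and 48.98 CPM in 5xFAD replicates 1 and 3. Cd5l-transgenic replicates 1 and 3 were above both 5xFAD mice and replicate 2 was below both. The means were 53.6 ± 16 CPM (SD, n = 3) and 45.9 ± 4.35 CPM (SD, n = 2). The log2 fold change was 0.22 (SE 0.277, edgeR adjusted p = 0.995, 95% interval -0.478 to 0.924), and 0.47 without Cd5l-transgenic replicate 2. Cd163 (ENSMUSG00000008845) lies on chromosome 6 at 124281615 to 124307486 on the + strand, and an antisense long non-coding RNA gene within its span had 7 to 18 counts.

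**Figure D2:**
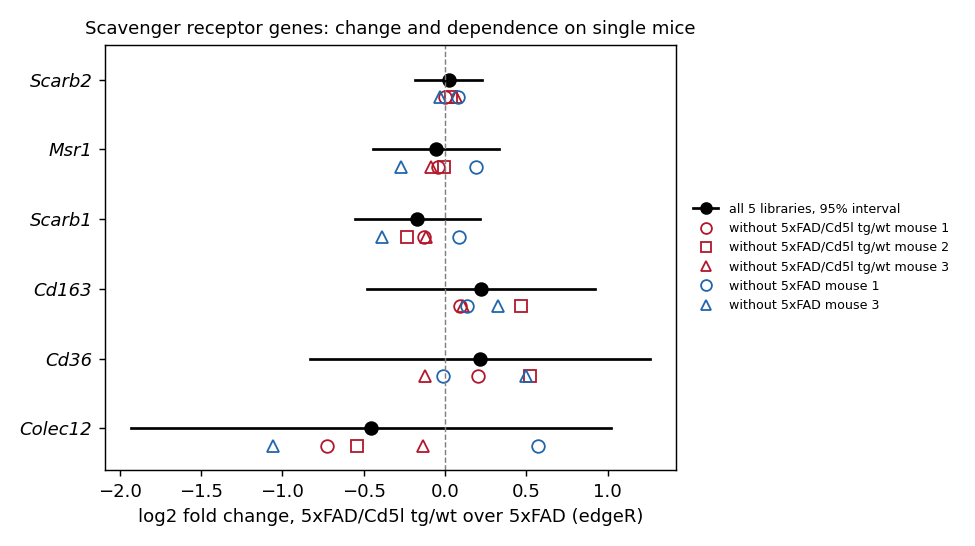
Log2 fold change of Cd5l-transgenic over 5xFAD by edgeR for the 6 tested receptors, as a black point with its 95% interval, and open symbols for the value when 1 library is left out. The interval is narrowest for Scarb2 and widest for Colec12, and every interval crosses 0.

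Cd163 varied with the summed marker RNA of border macrophages, the macrophages of meninges and vessel walls. The sum of 10 of their markers, among them Mrc1, Lyve1, F13a1 and Pf4 and without Cd163, was 306.9, 204.6 and 365.6 CPM in Cd5l-transgenic replicates 1, 2 and 3, against 235.3 and 266 CPM in 5xFAD replicates 1 and 3. All 10 markers had counts, and 7 had a higher mean in Cd5l-transgenic libraries. Mrc1, at 88.85 to 179.5 CPM, and F13a1, at 47.51 to 77.58 CPM, were the largest parts of the sum. Cd163 came to 20.53%, 17.15% and 17.16% of that sum in Cd5l-transgenic libraries, against 18.2% and 18.42% in 5xFAD libraries, a 1.2-fold range where its own CPM spanned 1.8-fold. Cd36 came to 3.718%, 3.02% and 4.386% in Cd5l-transgenic libraries, against 3.37% and 4.254% in 5xFAD libraries, a 1.45-fold range where its CPM spanned 2.6-fold. Both genes and the marker sum were lowest in Cd5l-transgenic replicate 2. Not every marker was: Pf4, Folr2 and Ms4a7 were lowest in 5xFAD replicate 3, and Lyve1, F13a1 and Clec10a in 5xFAD replicate 1. The part of border macrophages in the levels of Cd36 and Cd163 was not tested.

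Colec12, Scarb1 and Msr1 were each highest in 5xFAD replicate 1, the library with the largest plaque-associated sum. That sum was 17220, 16840 and 16090 CPM in Cd5l-transgenic replicates 1, 2 and 3, against 26030 and 15980 CPM in 5xFAD replicates 1 and 3. All 12 of its markers had counts, and 1 had a higher mean in Cd5l-transgenic libraries. Relative to that sum Colec12 spanned 2.42-fold over the 5 libraries (3.91-fold in CPM), Scarb1 1.31-fold (1.39-fold in CPM) and Msr1 1.43-fold (1.37-fold in CPM). The endothelial sum of 10 markers was 703.9, 1325 and 737.5 CPM in Cd5l-transgenic libraries, against 646 and 628 CPM in 5xFAD libraries. Endothelial cells can also express Cd36, Scarb1 and Colec12. Flt1 was the largest part of this sum, at 357.9 and 253.6 CPM in 5xFAD replicates 1 and 3. Every other marker of the list was lower in 5xFAD replicate 1 than in 5xFAD replicate 3. In Cd5l-transgenic replicate 2, where the endothelial sum was largest, Cd36 had its lowest value. Scarb1 was there the highest of the Cd5l-transgenic libraries, and Colec12 lay between the other 2 of them. The mural and fibroblast sum of 13 markers was 384.3 to 534.9 CPM in Cd5l-transgenic libraries and 292.3 and 322.2 CPM in 5xFAD libraries. The part of these cells and states in the receptor levels was not tested.

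**Figure D3:**
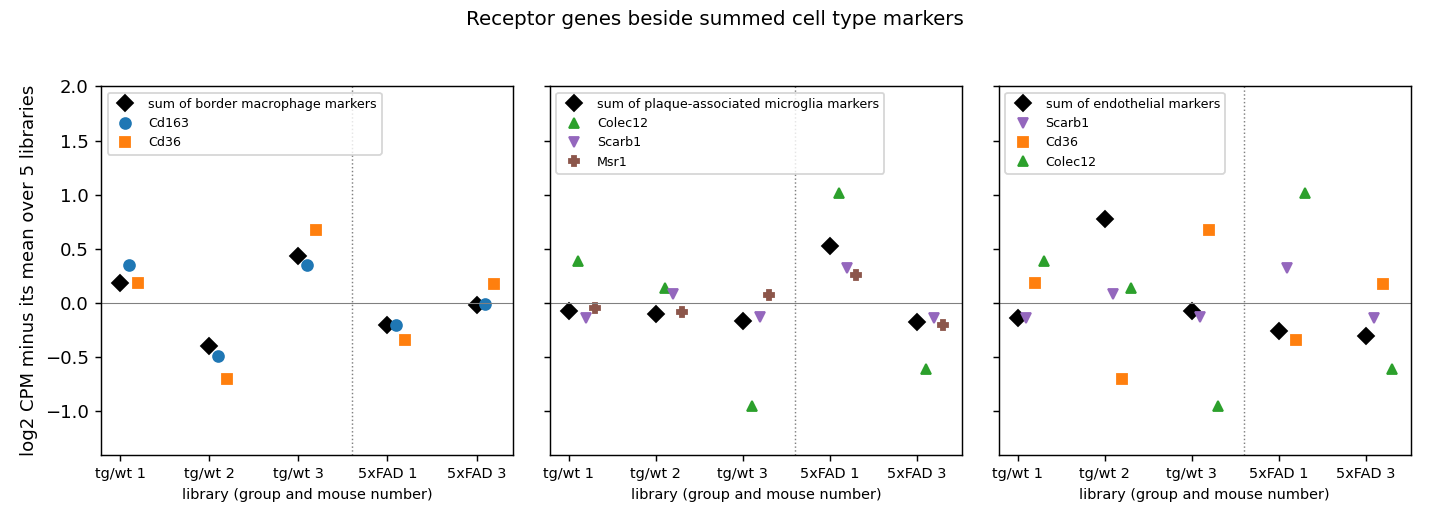
Log2 CPM of receptor genes (coloured symbols) and of summed cell type markers (black diamonds) in each library, each minus its own mean over the 5 libraries, with Cd5l-transgenic libraries left of the dotted line. Cd163 and Cd36 sit with the border macrophage sum in the left panel, and Colec12 and Scarb1 are highest where the plaque-associated sum is highest, in 5xFAD replicate 1. In the right panel the endothelial sum is highest in Cd5l-transgenic replicate 2, where Cd36 is lowest.

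Patterns across the 5 libraries were then compared between genes, as the root mean square difference of centred log2 CPM among the 10946 genes whose mean reached 5 CPM. These values describe the libraries, which share their cell type composition. The gene nearest to Cd36 was Mrc1, the mannose receptor of border macrophages, at a difference of 0.143, followed by F830016B08Rik at 0.16. Those nearest to Cd163 were Nlrc5 at 0.0727 and F13a1, coagulation factor XIII of macrophages, at 0.0991. Neither F830016B08Rik nor Nlrc5 was among the listed border macrophage markers. Mrc1 and F13a1 were also the largest parts of the border macrophage sum, so these matches are not separate from it. Among pairs of the 7 tested genes, the closest were the 3 pairs of the little varying Msr1, Scarb1 and Scarb2, at 0.133 to 0.168. Cd36 and Cd163 came next at 0.213, whereas Cd36 and Colec12 differed by 1.08. Colec12 was nearest to Cck at 0.18 and Tmem51 at 0.202. Msr1 was nearest to Smg9 and Rcan3, Scarb1 to Neat1 and Synj2, and Scarb2 to Trim41 and Tmem167b, but these 3 receptors varied so little that between 206 and 4250 genes lay within 0.1 of each. No gene came near Cd5l, for which the smallest differences were 3.09 (Mobp) and 3.28 (Elavl3).

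Among other scavenger receptors, of 16 listed genes 15 passed the filter, Stab2 not, and 0 passed the test by edgeR or DESeq2. Of these 15, 6 lay above 0 and 9 below, with a median log2 fold change of -0.09 against -0.027 over all tested genes. Of all tested genes 42.7% lay above 0. Stab1, a receptor of endothelium and macrophages, had means of 686 ± 83 CPM (SD, n = 3) in Cd5l-transgenic and 593 ± 62.5 CPM (SD, n = 2) in 5xFAD libraries, a log2 fold change of 0.21. Clec7a, the beta-glucan receptor dectin-1, had means of 555 ± 73.7 CPM and 673 ± 117 CPM, a log2 fold change of -0.28 that was -0.087 without 5xFAD replicate 1. Scarf2 had a log2 fold change of -0.22, and -0.012 without 5xFAD replicate 1. Scara5, a ferritin receptor, was under 1 CPM in 4 of the 5 libraries and at 2.398 CPM in 5xFAD replicate 3, the library rich in choroid plexus RNA.

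Of 15 other genes with SRCR domains 14 were in the table and 8 passed the filter. Of those tested, 1 lay above 0 and 7 below, against 42.7% above 0 over all tested genes. Their median log2 fold change was -0.61, against -0.027 over all tested genes. Of these 8, 5 had a mean under 5 CPM, and the other 3 had a median of -0.18. By edgeR and DESeq2, 0 passed. Cd5, the lymphocyte receptor after which CD5L is named, stood at 16.39, 12.61 and 12.31 CPM in Cd5l-transgenic libraries, against 18.37 and 14.39 CPM in 5xFAD libraries. Loxl3, a lysyl oxidase, stood at 28.73, 29.14 and 31.2 CPM against 34.87 and 32.31 CPM in 5xFAD, without overlap (log2 fold change -0.18, SE 0.0858, edgeR adjusted p = 0.995). Ssc5d, a soluble SRCR protein, was at or under 0.649 CPM in every library. It had 1, 12 and 10 counts in Cd5l-transgenic libraries against 13 and 23 counts in 5xFAD libraries, also without overlap. Groups did not overlap for 15.9% of all tested genes.

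All 14 listed genes that act with CD36 passed the filter, and 0 passed the test by edgeR or DESeq2. Of these 14, 9 lay above 0 and 5 below, against 42.7% above 0 over all tested genes. Values ran from -0.59 to 1.21, with a median log2 fold change of 0.04 against -0.027 over all tested genes. Itgb1, the integrin beta-1 chain of a CD36 receptor complex for fibrillar amyloid, stood at 421.1, 419.4 and 426.5 CPM in Cd5l-transgenic libraries, against 399.2 and 390.7 CPM in 5xFAD libraries. These groups did not overlap, at a log2 fold change of 0.10 (SE 0.0745, edgeR adjusted p = 0.995). Vav3, a guanine nucleotide exchange factor, stood at 2.456, 2.039 and 2.663 CPM against 0.7455 and 1.27 CPM in 5xFAD, also without overlap. Its log2 fold change was 1.21 (SE 0.349), with an unadjusted p of 0.0133 and an edgeR adjusted p of 0.995. Groups did not overlap for 15.9% of all tested genes, and 2.63% had an unadjusted p under 0.05 by edgeR. Fabp5, a fatty acid carrier, had a log2 fold change of -0.59 that was -0.00055 without 5xFAD replicate 1. The tetraspanin gene Cd9 was at -0.20, and at 0.02 without that library.

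Regulators and partners of CD5L were measured for 11 of 14 listed genes, of which 2 lay above 0 and 9 below. Over all tested genes 42.7% lay above 0. The median log2 fold change of the list was -0.03, against -0.027 over all tested genes. By edgeR and DESeq2, 0 passed. Nr1h3, which encodes liver X receptor alpha, stood at 2.715, 2.979 and 2.027 CPM against 1.389 and 2.144 CPM in 5xFAD (log2 fold change 0.52, SE 0.331), and the value was 0.26 without 5xFAD replicate 1 and 0.88 without 5xFAD replicate 3. Rxra, its retinoid X partner, was at -0.14, and -0.0068 without 5xFAD replicate 1. Fasn, the enzyme that CD5L inhibits, had means of 74.7 ± 13.7 CPM (SD, n = 3) and 72.4 ± 10.8 CPM (SD, n = 2), and Ighm, the IgM heavy chain, 348 ± 21.1 CPM and 356 ± 35 CPM. These last genes were named after their values were seen, for their role. Jchain ranged from 0.1939 to 2.723 CPM in Cd5l-transgenic libraries and stood at 5.286 and 1.044 CPM in 5xFAD libraries.

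Genes listed with CD163 and haem handling numbered 12, all tested. Of these, 7 lay above 0 and 5 below, against 42.7% above 0 over all tested genes. Their median log2 fold change was 0.03, against -0.027 over all tested genes. By edgeR and DESeq2, 0 passed. Hmox1, haem oxygenase 1, stood at 69.69, 61.69 and 70.02 CPM in Cd5l-transgenic libraries, against 82.92 and 74.63 CPM in 5xFAD libraries. Every Cd5l-transgenic library was below both 5xFAD libraries (log2 fold change -0.23, SE 0.0931), a pattern shared by 8.69% of all tested genes. By edgeR the unadjusted p was 0.0483 and the adjusted p 0.995, and 2.63% of genes had an unadjusted p under 0.05. Slc48a1, a haem transporter, was at 0.42, and 0.12 without Cd5l-transgenic replicate 2. Ftl1, the ferritin light chain, was at -0.18, and 0.08 without 5xFAD replicate 1, and Nfe2l2, which encodes the stress factor NRF2, was at -0.14, and -0.00103 without that library.

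Partners of Scarb1 and Scarb2 were tested for 11 of 14 listed symbols. Of these, 4 lay above 0 and 7 below, against 42.7% above 0 over all tested genes. Their median log2 fold change was -0.01, against -0.027 over all tested genes, and 0 passed by edgeR or DESeq2. The lipid exporters Abca1 and Abcg1, which load lipoprotein with cholesterol, were at 0.06 (SE 0.115) and 0.08 (SE 0.105). Apoe, the lipoprotein gene most abundant here, stood at 15460, 15170 and 11020 CPM in Cd5l-transgenic libraries, against 22640 and 11160 CPM in 5xFAD libraries. Its log2 fold change was -0.28, and 0.32 without 5xFAD replicate 1. Lcat, which esterifies cholesterol, was at 0.50, and 0.08 without Cd5l-transgenic replicate 2.

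**Figure D4:**
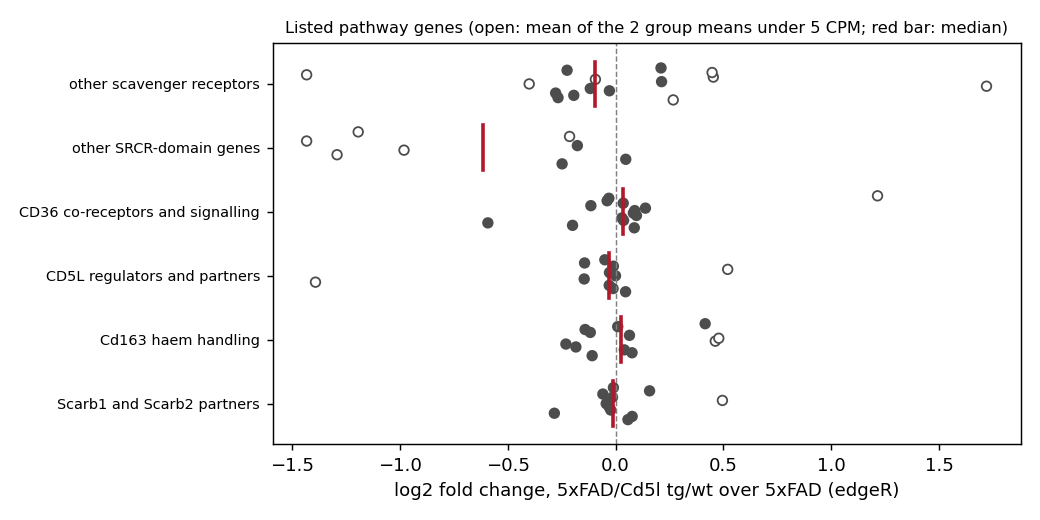
Log2 fold change of Cd5l-transgenic over 5xFAD by edgeR for each tested gene of the 6 lists, with open points for genes whose group means average under 5 CPM and a red bar at the list's median. Medians lie between -0.61 and 0.04, and the widest values are open points.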

How the data were processed

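RNA of CD11b-positive brain cells was sequenced from 5 mice, 1 library each. The authors deposited whole-number counts for Ensembl genes, without normalisation, with a gene length for each. The build is GRCm39 (mm39), per the submitters' processing notes. The labels used here do not state the aligner, counting tool, annotation release or strandedness, so overlapping antisense reads may be included. Column names gave the library of each column, except that Cd5l-transgenic replicate 3 is spelled ADAB in the table and ABAD in the labels. No per-sample column was left unused.

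The filter filterByExpr of edgeR 4.0.16 kept 17724 of 56748 genes. Counts were scaled by TMM and tested two-sided with the robust edgeR quasi-likelihood test on genotype, adjusted by Benjamini-Hochberg over all tested genes, under R 4.3.3. Standard errors were derived from the F statistic, and 95% intervals use its degrees of freedom. Scripts were tested on simulated counts. Alternatives were DESeq2 1.42.0, limma 3.58.1 (voom), other scalings and filters, the replicate number as a block and each library left out. The edgeR older method, the levels of Itgam and Pdgfb and the monocyte sum without Nr4a1 were added after seeing the data. Fasn and Ighm were also named after their values were seen.

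The 8 genes and the 19 gene lists (6 of pathways, 13 of markers) were chosen with earlier results of these data known. Named by rule were the 8 genes, the 4 genes of each pathway list with the smallest unadjusted p, and the 2 genes of most similar pattern. Of these, 1 gene that the rule names is not reported here.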

Additional observations from a re-analysis of the deposited data

How the results depend on the processing

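Each tested gene was recomputed under 14 alternatives. Of the 98 values for the 7 tested genes, 89 kept their direction and their side of the threshold, 8 had the opposite sign and 1 passed where the main value did not. That was Cd5l in DESeq2 (log2 fold change 8.19, adjusted p = 5.79e-19), where the number of genes called was 11, against 0 by edgeR. Leaving out 1 library gave 0 to 10 called genes. All 10 came without 5xFAD replicate 1, when 5xFAD replicate 3 alone stands for its group and is assumed to vary like the other libraries. Without 1 library, log2 fold changes ran from 7.38 to 9.95 for Cd5l, -0.12 to 0.52 for Cd36, 0.092 to 0.47 for Cd163, -0.27 to 0.19 for Msr1, -0.39 to 0.083 for Scarb1, -0.030 to 0.078 for Scarb2 and -1.06 to 0.57 for Colec12. With scaling by homeostatic microglia markers Scarb2 was at -0.0082. The cause of these differences was not tested. Mean CPM without TMM factors moved by less than the SD for all 8 genes.

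The 2 replicate numbers that both groups share give no pairing by the labels, and deviations of same-numbered libraries correlated at 0.129 and -0.24. With the replicate block 0 genes were called, Cd5l was at 8.02 and Cd36 at 0.51. With 2 and 3 mice, the intervals of Cd36 and Colec12 include 2-fold changes, and Marco cannot be compared at this depth.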
